A study of Mus musculus with 6 samples.

Results

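The genes of cell to cell junctions described here are the cadherins Cdh1 and Cdh2, the catenins Jup, Ctnnb1 and Ctnna1, the adhesion molecule gene Epcam, and the tight junction genes Cldn6, Cldn7, Tjp1 and Ocln. They were followed in mouse embryonic stem cells cultured for 2 days in N2B27, a medium without serum that lets such cells become neural. The 10 genes were chosen by symbol, out of 18193 genes with a probe set of a single symbol, and with earlier results of these arrays known. Jup and Cdh2 had been named there for higher signals after knockdown. The values of the 10 genes in both comparisons below are therefore a description without a test, and calls are counted only beside the share of all probe sets called by the same rule. All 18 probe sets annotated to exactly 1 of the symbols were used, of 45037 on the array, and all 18 passed the filter on low signals.

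The cells were derivatives of the embryonic stem cell line E14TG2a on a 129P2 (formerly 129/Ola) background. Every culture carried a doxycycline-inducible hairpin in a microRNA backbone (shRNAmir) against Geminin, the controls included. GemKD cultures had 500 ng of doxycycline (Dox) as the labels give it, and control cultures had none, so Dox and knockdown of Geminin cannot be told apart. The hairpin was shRNAmir 11 in experiments 1 and 3, and shRNAmir 9, in another line, in experiment 2. Each of the 3 independent experiments gave 1 GemKD and 1 control array of total RNA, 6 arrays in all.

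Cadherins are calcium-dependent adhesion receptors that bind like cadherins on the neighbouring cell. Their tails bind beta-catenin or plakoglobin, which bind alpha-catenin and through it the actin cytoskeleton. E-cadherin (Cdh1) is the cadherin of embryonic stem cells and of epiblast, and N-cadherin (Cdh2) is gained as cells become neural. Tight junctions lie beside these adherens junctions and are built from claudins and occludin in the membrane and from ZO-1 (Tjp1) below it. The neural plate is known to lose occludin as the neural tube forms.

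Median signals of the 6 arrays lay between 59.3 and 60.9, and 31526 probe sets were tested. Gmnn itself had 27.6%, 48.0% and 36.7% of the control signal in GemKD of experiments 1, 2 and 3, with an exact permutation p of 0.1 (two-sided), which is the lowest possible with 3 arrays in each group. Both arrays of experiment 3 stood apart. Over 22518 brighter probe sets the SD of the log2 difference was 0.40 to 0.43 between an array of experiment 3 and any other, and 0.16 to 0.22 between all other pairs of arrays, the pairs within an experiment included. Levels below are linear signals of 1 probe set, and levels of different probe sets are not compared. Ratios and differences are given as log2 of the signal plus 16, which understates those of dim genes. RNA came from whole cultures, so fewer cells of a type and less RNA per cell cannot be told apart.

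**Figure D1:**
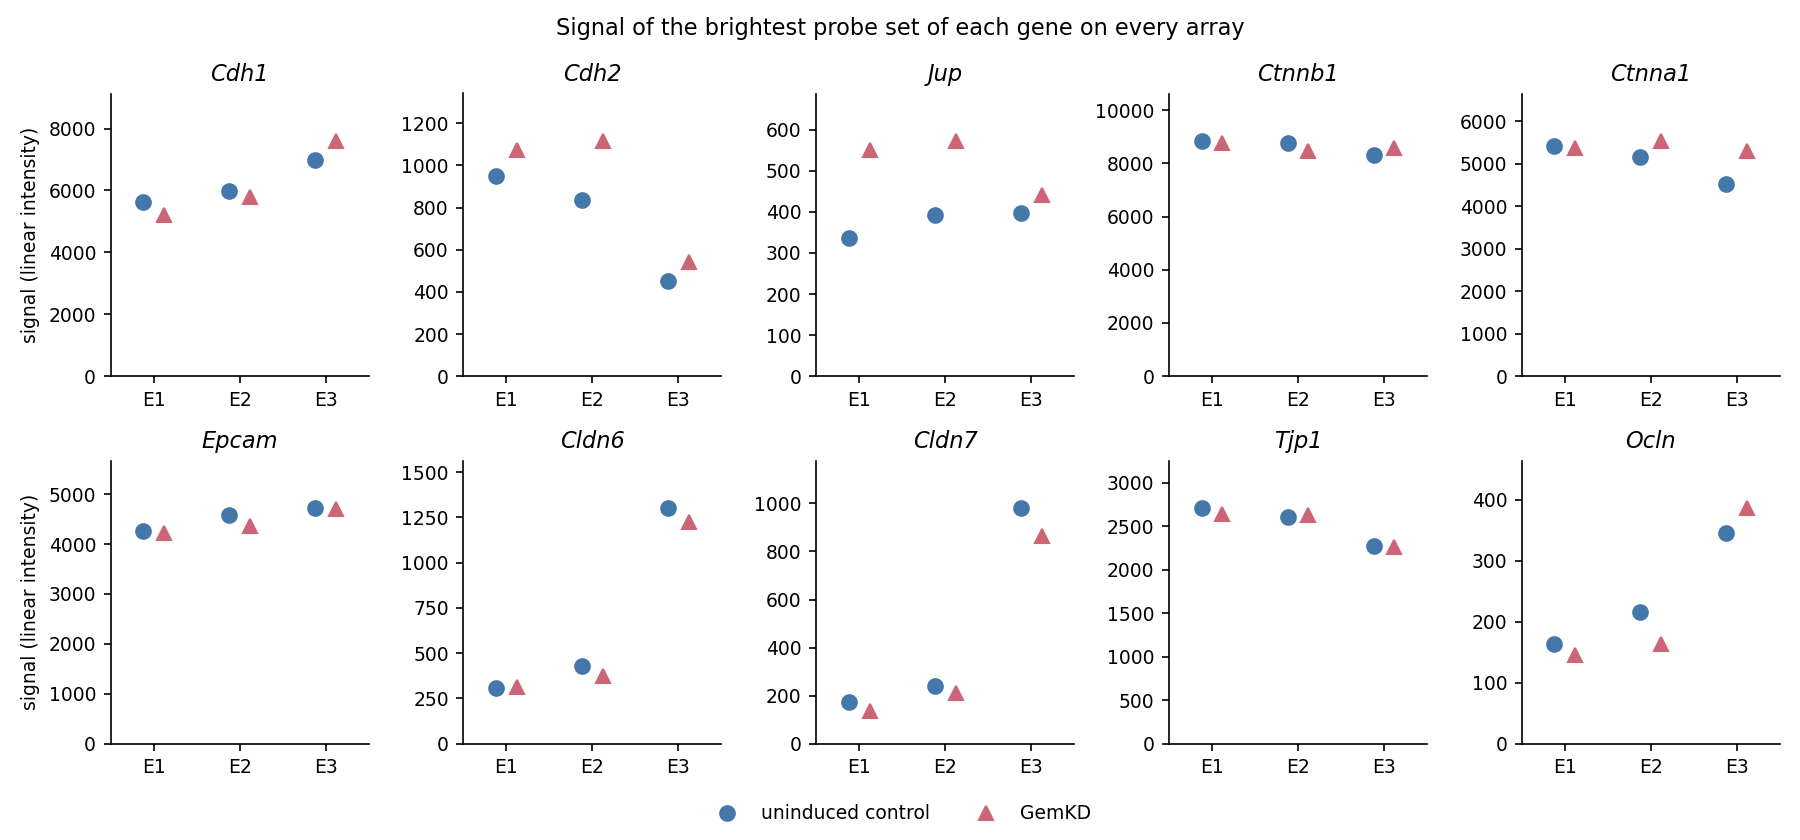
Linear signal of the brightest probe set of each of the 10 genes (vertical axes, each from 0) in experiments 1, 2 and 3 (E1, E2 and E3), with 1 circle for the uninduced control and 1 triangle for GemKD. Cldn6, Cldn7 and Ocln were higher and Cdh2 was lower in both arrays of experiment 3, and Jup was higher in GemKD in each experiment.

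Among the cadherins, N-cadherin was higher in GemKD in each experiment and E-cadherin was not. Cdh2, read by probe set 1418815_at, had signals of 947, 837 and 451 in the controls of experiments 1, 2 and 3. GemKD arrays had 1073, 1117 and 540.0 for the same probe set. The GemKD value was the higher within every experiment, but the groups overlapped because both values of experiment 3 lay below all 4 others. The log2 ratios were 0.18, 0.41 and 0.25, with a mean of 0.28 (SD 0.12, n = 3). The SE of this difference was 0.34 in the fit that ignores which experiment an array came from, and 0.075 in the fit with experiment as a block. The dimmer probe set of Cdh2, 1449244_at, went the same way, with log2 ratios of 0.23, 0.26 and 0.25.

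Cdh1, read by 1448261_at, had control signals of 5611, 5997 and 6973 in experiments 1, 2 and 3. Its GemKD signals were 5209, 5773 and 7610. GemKD was a little below its control in experiments 1 and 2 and above it in experiment 3, so the direction was not shared. The mean log2 ratio was -0.01, with a blocked 95% interval of -0.11 to 0.08. In no experiment was its ratio further than 0.13 from 0.

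Plakoglobin (Jup), which binds cadherins in adherens junctions and desmosomal cadherins in desmosomes, had the largest ratio of the 10 genes. Its 1 probe set, 1426873_s_at, had signals of 336, 392 and 397 in the controls. The GemKD arrays had 549.6, 573 and 442. All 3 GemKD arrays lay above all 3 controls, which held for 2.83% of all probe sets tested. The log2 ratios were 0.68, 0.53 and 0.15, a mean of 0.45 (SE 0.13 without and 0.11 with the block). The ratio of experiment 3 was the smallest of the 3, and the difference in ratio between experiment 3 and the other experiments was -0.46 (SE 0.16). The suffix of this probe set marks probes that can match more than 1 transcript, and no second probe set of Jup was there to set beside it.

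Beta-catenin (Ctnnb1), which links cadherins to alpha-catenin and also carries the Wnt signal to the nucleus, was close to its controls. Its brightest probe set, 1420811_a_at, had 8859, 8770 and 8299.8 in the controls of experiments 1, 2 and 3. In GemKD it had 8769, 8472 and 8571. These values overlapped, and the mean log2 ratio was -0.01 with a blocked 95% interval of -0.07 to 0.06. Of its other probe sets, 1450008_a_at had a mean log2 ratio of 0.03 and 1430533_a_at had 0.13, the mean of 0.15, 0.33 and -0.10.

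Alpha-catenin (Ctnna1) ties the cadherin complex to actin, and its probe sets differed among themselves. The brightest, 1437807_x_at, had 5419, 5155 and 4514 in the controls. The GemKD arrays had 5364, 5539 and 5289. The ratio was below 0 in experiment 1 and above 0 in the others, with a mean of 0.11 (blocked SE 0.045). A probe set of nearly the same brightness, 1448149_at, had a mean of 0.03 (blocked SE 0.035), so the difference of the brightest was not repeated in size. The dim probe set 1437275_at had all 3 GemKD arrays below all 3 controls, at signals of 20.6 to 23.9 against 24.2 to 27.6, just above the filter limit of 20.1. That held for 2.27% of all probe sets tested, and the other 3 probe sets of Ctnna1 did not show it.

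Epcam encodes an adhesion molecule of epithelia and of undifferentiated embryonic stem cells that stabilises claudins. Probe set 1416579_a_at had control signals of 4262, 4571 and 4719, and GemKD signals of 4226, 4361 and 4705. GemKD lay below its control in each experiment by at most 0.07 in log2, with a mean of -0.03 and a blocked 95% interval of -0.11 to 0.05. The dimmer 1447899_x_at had a mean of -0.11, with ratios of -0.26, -0.09 and 0.02.

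Of the tight junction genes, Cldn7 was lower in GemKD in every experiment, at low signals in experiments 1 and 2. Cldn7, a claudin of many epithelia, had control signals of 174, 238 and 980.5 with probe set 1448393_at. Its GemKD signals were 136, 209 and 865. The log2 ratios were -0.33, -0.18 and -0.18, a mean of -0.23 (SD 0.087, n = 3), with SE 0.77 without and 0.092 with the block. The ratio was small beside the distance between experiments, since the 2 arrays of experiment 3 had 865 and 980.5 and no other array more than 238.

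Cldn6, a claudin of early embryonic epithelia, had 306, 429 and 1301 in the controls with probe set 1417845_at, and 311, 372 and 1222 in GemKD. The ratios of 0.02, -0.20 and -0.09 did not share a direction. Occludin (Ocln), read by 1448873_at, had 163, 216 and 346 in the controls and 145, 164 and 386 in GemKD. It was lower in GemKD in experiments 1 and 2 and higher in experiment 3, with log2 ratios of -0.16, -0.37 and 0.15. The dimmer probe set of Ocln, 1440220_at, had -0.07, -0.46 and -0.07. ZO-1 (Tjp1), the scaffold below claudins and occludin, had 2709, 2609 and 2279 in the controls and 2640.2, 2627 and 2266 in GemKD with probe set 1417749_a_at. Its mean log2 ratio was -0.01, with a blocked 95% interval of -0.11 to 0.09.

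**Figure D2:**
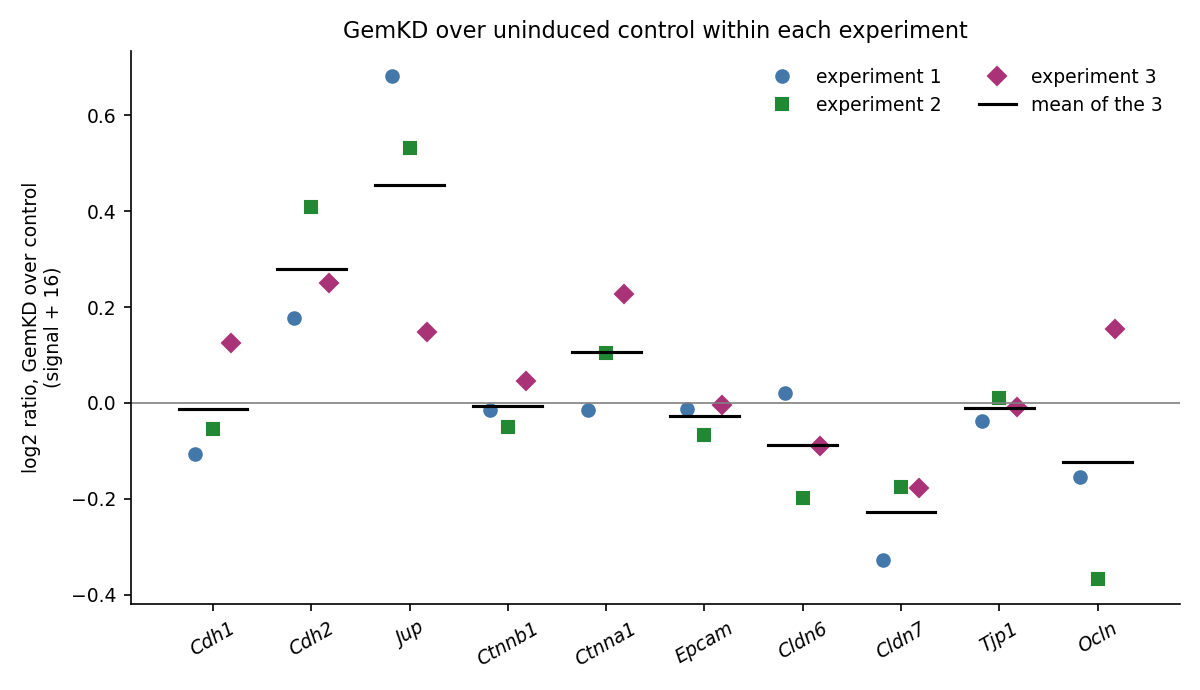
Log2 ratio of GemKD over the uninduced control (vertical axis, signal plus 16) within experiments 1, 2 and 3 for the brightest probe set of each gene, with a line at the mean of the 3 ratios. The 3 values of Jup and of Cdh2 lie above 0 and those of Cldn7 below it, and the Jup value of experiment 3 is the lowest of its 3.

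Over the brightest probe sets of the 10 genes, 2 had a ratio above 0 in all 3 experiments (Cdh2 and Jup), 2 below 0 in all 3 (Cldn7 and Epcam) and 6 had both signs. Over all 18 probe sets the counts were 5 above and 4 below, beside 13.5% and 10.5% of all probe sets tested. No member was past 1.5-fold in all 3 experiments in either direction (0.0159% higher and 0.0285% lower over all tested). The median log2 difference over the 10 brightest probe sets was -0.01, beside 0.01 over all tested. In limma, with Benjamini-Hochberg adjusted p under 0.05, 0 of 18 were called higher and 0 lower without the block (0.00317% and 0% of all tested) and 0 and 0 with it (0.00634% and 0.00317%). Gmnn itself, at a log2 difference of -1.44, was not called without the block (limma adjusted p 0.296) but was with it (0.0004). The lack of calls without the block therefore does not show a lack of change. With the block, Jup at a log2 difference of 0.45 had a limma adjusted p of 0.976. The lack of calls with the block does not show a lack of changes of that size either. At an unadjusted p under 0.05 there were 1 of 18 without the block (1.1% of all tested) and 5 with it (4.62%), namely both probe sets of Cdh2 and those of Jup and Cldn7 with the brightest of Ctnna1. Of 6 markers of pluripotent cells, 5 lay above their control in every experiment, with a median log2 difference of 0.18, and Pou5f1 had both signs. None was called in limma without or with the block (lowest blocked adjusted p 0.371). Nanog had log2 ratios of 0.50, 0.62 and 0.23. Their summed signals were higher in GemKD within each experiment, at 15123 against 13631, 15655 against 14186 and 10352 against 10062 in experiments 1, 2 and 3. The sums of the neural and of the surface ectoderm and neural crest markers were also higher in GemKD within each experiment, and that of the trophoblast markers was lower. The trophoblast markers were dim, and Gata3 and Elf5 were below the filter. Of the 3 tested, 2 lay below their control in every experiment, while Hand1 had log2 ratios of -0.03, 0.04 and 0.32. Of the 6 neural markers only Sox3 lay above its control in every experiment. In experiment 1 Sox1 had 2436 against 2443 and Pax6 821 against 823. Of the 6 surface ectoderm and neural crest markers, 2 lay above their control in every experiment and 1 below it. The part of these markers in the ratios of the junction genes was not tested.

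The study used both hairpins to control for effects of a single sequence. The difference in ratio between shRNAmir 9 and shRNAmir 11 was called for 0 of 31526 probe sets in limma, none of them among the 18. Its unadjusted p was under 0.05 for 209 (0.663%), with 0 of the 18 among them. This fit has no block and pools experiments 1 and 3, so the distance between those experiments widens its error. Over the brightest probe sets of the 10 genes the SE ran from 0.098 for Ctnnb1 to 1.77 for Cldn7, with 1.43 for Cldn6 and 0.76 for Cdh2. The lack of a call therefore does not show that the 2 hairpins gave like ratios. Only experiment 2 used shRNAmir 9, so hairpin, line and experiment cannot be told apart in this comparison. The difference in ratio between experiment 3 and the other experiments was called for 2 probe sets (0.00317% in each direction), none of them among the 18, and 3 of the 18 had an unadjusted p under 0.05, beside 9.71% of all tested.

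Experiment 3 was then set beside experiments 1 and 2. In experiment 3 Cldn6, Cldn7 and Ocln had higher signals and Cdh2 a lower one, in both arms. The experiment is a single one, it used the same hairpin as experiment 1, and no label sets it apart, so there is no replicate check and no test. Cldn7 averaged 189 over the 4 arrays of experiments 1 and 2 and 923 over the 2 of experiment 3, 4.87-fold higher. Cldn6 averaged 354 and 1261, 3.56-fold higher. Ocln averaged 172 and 366, 2.13-fold higher, and its dimmer probe set 70.9 and 107, 1.51-fold higher. The lowest array of experiment 3 lay above the highest of the other 4 for each of these probe sets.

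In log2 of the signal plus 16, Cldn7 differed by 2.22, Cldn6 by 1.80 and Ocln by 1.03. Experiments 1 and 2 differed from each other by 0.49, 0.36 and 0.27 for the same genes, with experiment 2 the higher. For Cldn7 the differences from each single array of the same arm ran from 1.97 to 2.54, for Cldn6 from 1.57 to 2.03 and for Ocln from 0.64 to 1.32. GemKD and control arrays of experiment 3 thus lay together, apart from the other arrays of their own arm.

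The cadherins went opposite ways. Cdh2 averaged 994 in experiments 1 and 2 and 496 in experiment 3, with a log2 difference of -0.98 (-0.91 in the dimmer probe set). Its differences from single arrays of the same arm ran from -1.04 to -0.87, against -0.06 between experiments 1 and 2. Cdh1 averaged 5648 and 7292, with a log2 difference of 0.37 and differences from single arrays of 0.22 to 0.55, against 0.12 between experiments 1 and 2. Both arrays of experiment 3 lay below the other 4 for Cdh2 and above them for Cdh1, which held for 25.7% and 20.8% of all probe sets tested. By size, the difference of Cdh2 lay at percentile 97.9 of all tested and that of Cdh1 at percentile 76.6.

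The catenins and the scaffold differed little. Tjp1 was lower by a log2 difference of -0.22, with both arrays of experiment 3 below the other 4. Ctnnb1 had -0.05 in its brightest probe set, with overlapping arrays, -0.18 with no overlap in 1450008_a_at and -0.16 with overlap in 1430533_a_at. Ctnna1 had -0.14 in its brightest probe set, with overlapping arrays, while 1448149_at had -0.19 with no overlap and 1436631_at, at signals of 111 to 179, had 0.34. Jup had -0.11, made up of lower GemKD arrays (-0.36 and -0.30) and higher or like control arrays (0.23 and 0.02), which is the smaller ratio of experiment 3 described above. Epcam was higher by 0.11, and by 0.35 in its dimmer probe set, with no overlap in either.

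By the rule of 2-fold with no overlap, 3 of the 18 probe sets were higher in experiment 3, beside 0.584% of all probe sets tested, and 0 were lower, beside 1.38%. The 3 were the brightest of Cldn6, Cldn7 and Ocln. At a limit of 1.5-fold the counts were 3 higher and 2 lower (both of Cdh2), beside 3.25% and 5.17%. Without any limit of size, both arrays of experiment 3 lay above the other 4 for 8 of the 18 and below them for 5, beside 20.8% and 25.7%. Ocln at 1.03 lay just inside this limit and Cdh2 at -0.98 just outside. Without experiment 2 both probe sets of Cdh2 passed too, giving 5, and without experiment 1, or without its GemKD array, Ocln did not pass (0.90 and 0.96). Leaving out the control array of experiment 2 gave 4, with the brighter probe set of Cdh2, and leaving out the GemKD array of experiment 3 gave 4, with both of Cdh2 and without Ocln. The median difference over the 10 brightest probe sets was 0.03, beside -0.01 over all tested, and its median size 0.29, beside 0.19.

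The sequence upstream of Cldn6 is shown because Cldn6 and Cldn7 were the members with the largest difference in experiment 3. RefSeq promoters of build GRCm38.p6 were matched for 7 of the 10 genes by symbol. The 250 bases before each start were searched on both strands for CACCTG, the E-box known to be bound by Snail and Zeb factors, for AACCGGTT, the site of Grainyhead-like factors, and for the GC box GGGCGG. No 2 of these motifs share bases in the stretches printed. Of 32851 promoters, 17.2% held CACCTG, 0.116% AACCGGTT and 32.7% GGGCGG. The Cldn6 stretch lies at chr17:23679115-23679364 on the plus strand and ends at the base before the start, with matches in capitals, and holds CACCTG once, read on the other strand as CAGGTG, and the GC box 2 times as CCGCCC.
Cldn6: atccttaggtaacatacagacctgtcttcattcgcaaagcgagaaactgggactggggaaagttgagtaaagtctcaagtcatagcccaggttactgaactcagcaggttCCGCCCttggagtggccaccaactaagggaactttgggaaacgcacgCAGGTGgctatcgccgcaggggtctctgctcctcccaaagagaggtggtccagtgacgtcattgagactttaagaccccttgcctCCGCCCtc
For Cldn7 and Ocln the 26 bases around each CACCTG match are shown, with the match in capitals. Both of these genes have 2 annotated starts, and the matches lie before the downstream one, 97 and 57 bases before it for Cldn7 and 213 and 68 bases for Ocln. They lie at chr11:69965314-69965339 and chr11:69965354-69965379 on the plus strand and at chr13:100552696-100552721 and chr13:100552551-100552576 on the minus strand.
Cldn7 first: tcttcctcttCACCTGgacgaggagg
Cldn7 second: acttccggttCAGGTGagtgtccctt
Ocln first: atcggagtttCAGGTGaatgggtcac
Ocln second: aggggctcggCAGGTGggtcccagcg
Epcam, which differed little, also held CACCTG 2 times, while the windows of Jup, Tjp1 and Ctnnb1 held none. None of the windows held AACCGGTT. A match is a description of the letters and not of binding.

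Other genes of these junctions were read from lists, by the brightest probe set of each gene. Of 84 genes in 8 lists, 82 had a probe set and 75 were tested. In GemKD against control, 0 of the 75 were called in limma without or with the block. At an unadjusted p under 0.05 there were 1 and 4 of 75, beside 1.1% and 4.62% of all probe sets tested. Ratios were above 0 in all 3 experiments for 9 genes and below 0 for 9, beside 13.5% and 10.5%. Among those named by size were Jam2, an immunoglobulin-like junction protein (0.29, with ratios of 0.32, 0.25 and 0.32), and Esrp1, a splicing regulator of epithelia (-0.24, with -0.38, -0.31 and -0.03). The dimmer probe sets of Jam2 had means of 0.29, -0.04, 0.24 and 0.30. Marveld3, a tight junction protein related to occludin, had -0.38, with -0.62, -0.59 and 0.07. Dsp, which encodes the desmosomal plakin that plakoglobin binds, had 0.18, with 0.06, 0.25 and 0.23. Nectin3, an adherens junction receptor, had 0.18, with 0.06, 0.33 and 0.15, and its dimmer probe sets had means of 0.11, 0.10, -0.03 and -0.08. The claudin genes Cldn1 (-0.40) and Cldn2 (-0.38) were dim, at control means of 29.2 and 31.1, and the ratios of Cldn1 had both signs.

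In experiment 3, 7 of the 75 list genes were past 2-fold higher with no overlap and 2 lower, beside the 0.584% and 1.38% above. Among the other tight junction genes, 2 of 16 were higher. Marveld2 (tricellulin), an occludin relative of the corners where 3 cells meet, averaged 124 in experiments 1 and 2 and 284 in experiment 3 (log2 1.08). Marveld3 averaged 167 and 515 (1.58). Jam2 was the 1 lower gene of this list, at 345 and 47.0 (-2.52), and its other 4 probe sets had -2.32 to -1.29.

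Epithelial regulators and keratins held 4 of 13 genes past the limit, all higher, with a list median of 0.56. They were Esrp1 (668 and 1802, log2 1.43), Esrp2 (67.5 and 154, 1.02), the simple keratin gene Krt18 (218 and 639, 1.49) and St14, a membrane serine protease of epithelia (300.4 and 709, 1.21). Of 6 repressors of epithelial genes 1 was past the limit, Zeb1, which averaged 463 and 57.3 (-2.73). Its other probe sets had 0.04 (1443005_at, mean signal 82.5) and -1.16 (1446127_at, 23.6). Zeb2 had 0.12 in its brightest probe set, 1456389_at, and -1.47 and -1.79 in the next ones, 1434298_at and 1422748_at, so its probe sets disagreed.

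Mesenchymal genes had a median of -0.39, with 5 of 8 below 0 and 3 above it. Itga5 had -0.95, Vim -0.41 and Fn1 -0.40, and 1 of 8 was past the limit. That was Tagln, an actin-binding protein, which was 1 of the 3 above 0 (166 and 778, log2 2.14). No gene of the other lists was past 2-fold. Their medians were 0.19 for the other classical cadherins, where P-cadherin (Cdh3) had 0.96, -0.05 for the other catenins and partners, 0.05 for the other claudins, where Cldn4 had 0.69, Cldn5 0.58 and Cldn9 -0.68 and 4 of 9 lay below 0, and 0.20 for desmosome genes, where Pkp2 had 0.71 and Dsp -0.64.

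**Figure D3:**
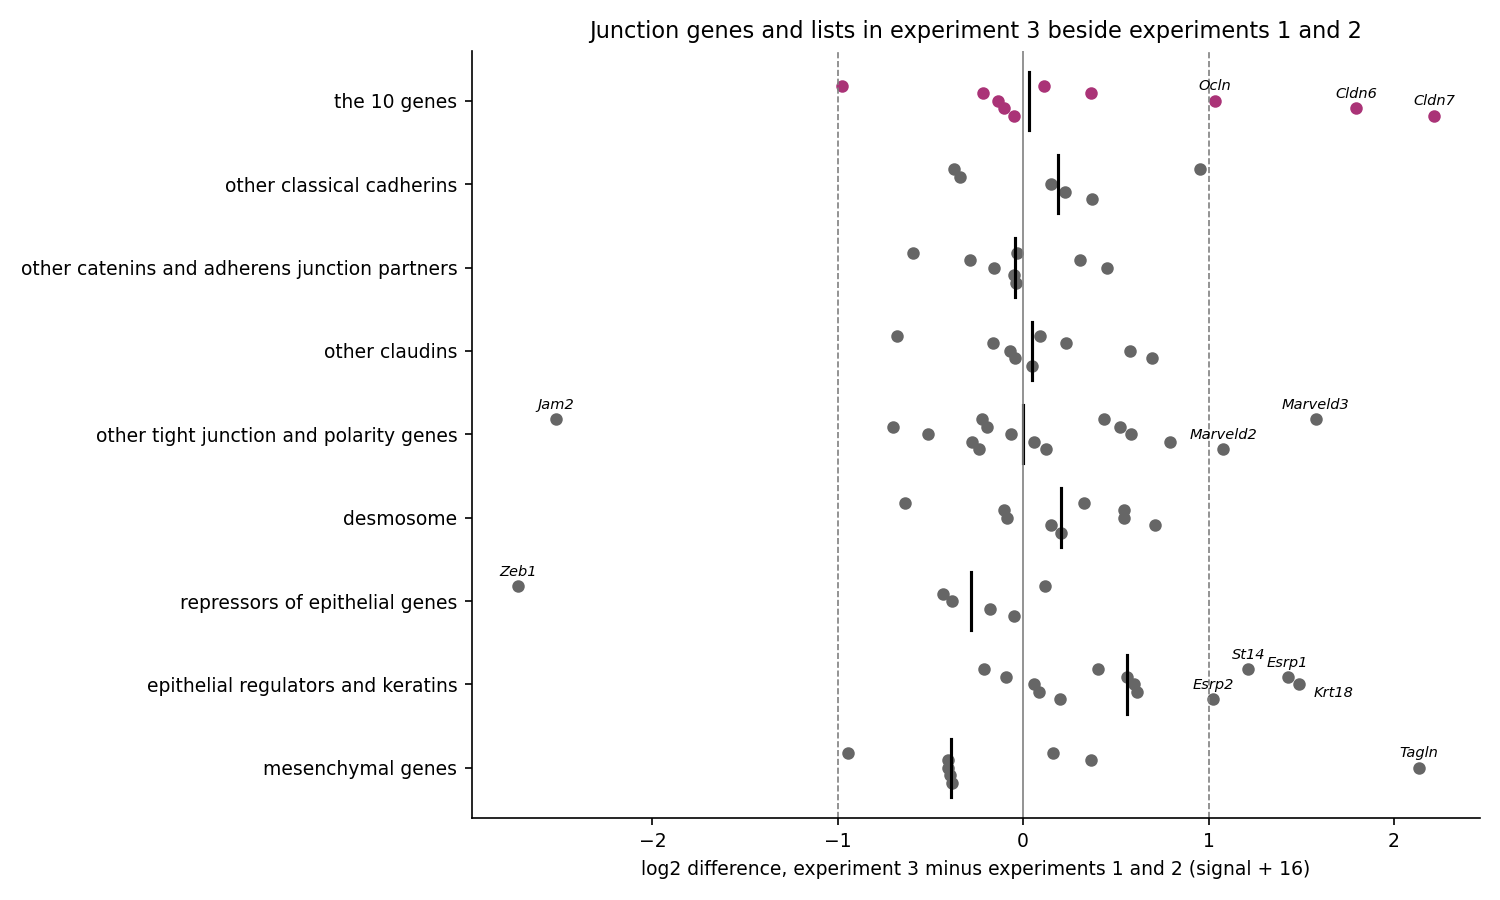
Log2 difference of experiment 3 minus experiments 1 and 2 (horizontal axis, signal plus 16) for the 10 genes and for the tested genes of each list, 1 point per gene, with a black line at the median of each list and dashed lines at 2-fold. Genes past 2-fold are named. Cldn7, Cldn6 and Ocln lie to the right of the 2-fold line, and Zeb1 and Jam2 lie farthest to the left.

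**Figure D4:**
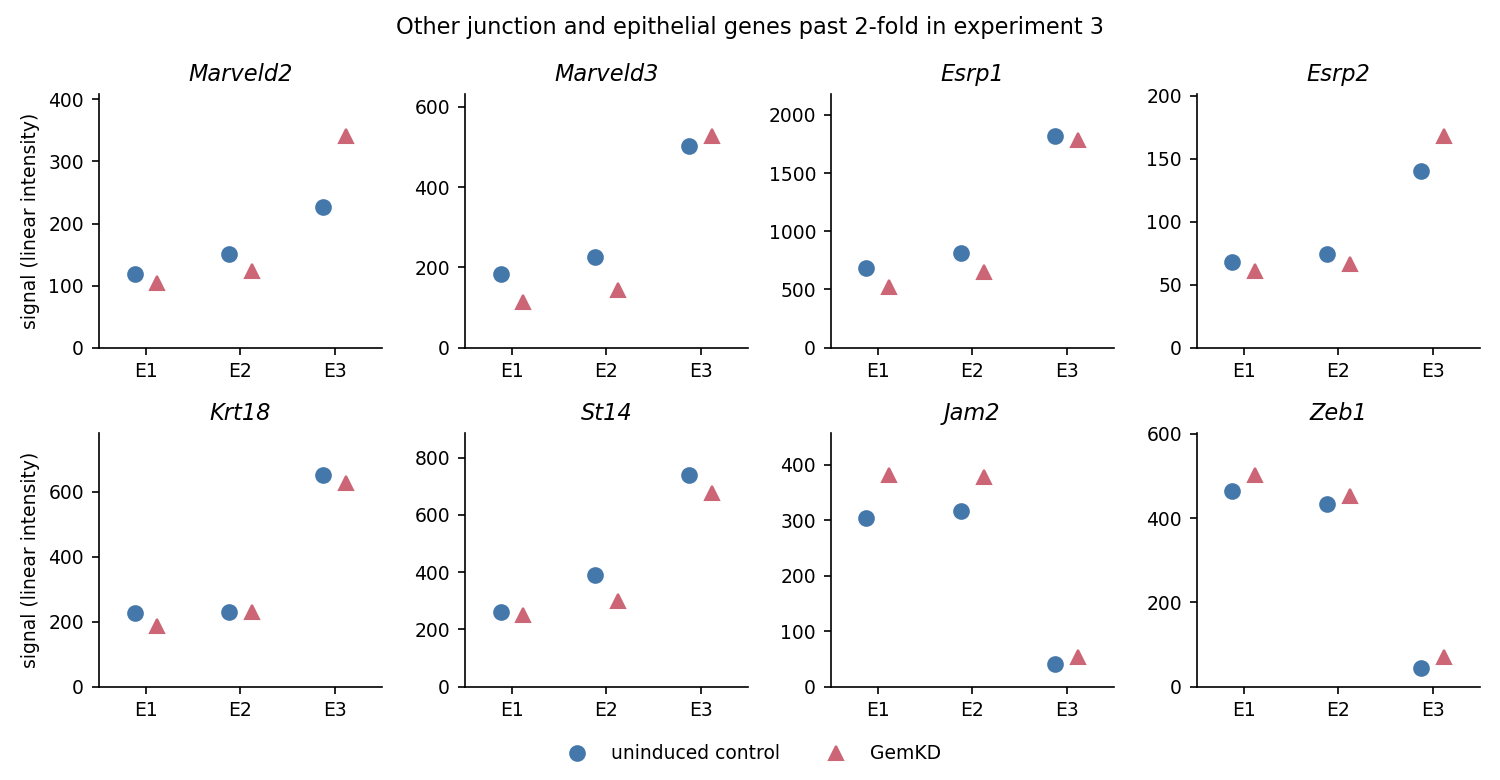
Linear signal (vertical axes, each from 0) of 8 of the listed genes past 2-fold in experiment 3, by experiment, with circles for uninduced controls and triangles for GemKD. Marveld2, Marveld3, Esrp1, Esrp2, Krt18 and St14 are higher in both arrays of experiment 3, and Jam2 and Zeb1 are lower. Tagln, of the mesenchymal list, was also past 2-fold higher (log2 2.14) and is not shown.

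The label of the cells, neurectoderm, was set against marker genes, and several marker lists also differed in experiment 3. Neural markers were present, with summed signals of 4256 to 5088 over the 6 genes in experiments 1 and 2 and 2411 to 2644 in experiment 3, where 2 of 6 (Sox1 at -2.04 and Pax6 at -2.24) were past 2-fold lower, beside 1.38% of all probe sets tested. Zic1 had -0.85 and Hes5 -0.26, while Sox3 had 0.35 and Nes 0.10, so the lower sum came mainly from Sox1 and Pax6. Pluripotency markers were present too, at 13631 to 15655 and 10062 to 10352, with 3 of 6 lower (Nanog, Zfp42 and Dppa3). Pou5f1 was alike, at 7508 and 7371. Epiblast markers summed to 13525 to 15675 and 20339 to 20693, with Fgf5 past 2-fold higher among 4, beside 0.584% of all tested. Trophoblast markers were dim in all arrays (151 to 193 and 191 to 214 over 5 genes, with Gata3 and Elf5 below the filter). Endoderm markers summed to 239.9 to 358 and 326 to 332 over 6 genes, with Afp below the filter. Mesoderm markers summed to 654 to 794 and 629 to 669 over 5 genes, with Mixl1 below the filter. Surface ectoderm and neural crest markers summed to 1641 to 1971 and 1147 to 1255, with Tfap2c past 2-fold lower among 6. The lower sum came mainly from Tfap2c (960 and 260), while Foxd3 had 0.72 and Sox10 0.08, the 2 above 0 against 4 below. Fibroblast markers summed to 953 to 985 and 604 to 643, with Col1a2 past 2-fold lower among 6. That lower sum came mainly from Col1a2 (502 and 229), while Thy1 had 0.66, the 1 above 0 against 5 below. No marker was listed at 0, but 1.58% to 1.69% of the values on an array were exactly 1. The lack of a 0 therefore does not show that a marker was detected. The part of these cell types in the junction gene differences was not tested.

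Genes with the profile over the 6 arrays nearest to Cdh2, Cdh1 and Jup were found by Euclidean distance of mean-centred log2 values over 11186 genes. Nearest to Cdh2 were Llgl2 (0.11), Stmn2 (0.13) and Fbxo6 (0.14), beside a median distance of 1.15. Llgl2, a polarity protein gene, had 920.4, 829.9 and 480.1 in the controls and 1063, 1081 and 522 in GemKD, lower in experiment 3 and higher in GemKD as Cdh2 was. Nearest to Cdh1 were Tma16 (0.066), Mdn1 (0.079) and Jade3 (0.087), beside a median of 0.58. Nearest to Jup were Camk1 (0.28), Mesp1 (0.33) and Tle5 (0.33), beside a median of 0.73, so that Jup had no neighbour as close as those of the cadherins.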

How the data were processed

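Values are those the authors deposited, an intensity on a linear scale for each of 45037 probe sets of the Affymetrix Mouse Genome 430 2.0 array. How they were summarised and normalized is not given in the sources used. Column medians were nearly equal, so no further normalization was applied. The platform annotation gave the gene names, with 34945 having 1 gene symbol, 932 several and 9160 none. Updating symbols by Entrez identifier through RefSeq genes (GRCm38.p6) changed 0 of them. The log2 of the signal plus 16 was analysed, and probe sets with a mean signal above the 30th percentile (20.1) were tested.

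The GemKD comparison used lmFit and trended eBayes of limma 3.58.1 under R 4.3.3, two-sided. The main design has no block, and the alternative adds the experiment as a block. The experiments pair the arrays, since each had its own control in the same line. Deviations from group means correlated between the arrays of an experiment with 0.43, 0.38 and 0.66. Experiment 3 stood apart in both arms, which by itself makes such deviations correlate, so these values do not measure the pairing within experiments 1 and 2. By SD of the log2 difference, GemKD of experiment 2 lay nearer to GemKD (0.16) and control (0.18) of experiment 1 than to its own control (0.21). The labels do not say how cultures of an experiment were separated. Interaction fits rest on 2 residual degrees of freedom. The code was tested on simulated data.

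The members and lists were chosen with earlier results of these data known. The genes named are every member, up to 3 genes per list by size of the GemKD difference and up to 3 by the difference of experiment 3, the nearest profiles, Gmnn and the markers. Probe sets of Zeb1, Zeb2, Jam2 and Nectin3 other than the brightest, Esrp2, Fn1 and the genes singled out by unadjusted p were picked with their values in view. The alternatives tried were the block, a hairpin term, quantile normalization, no filter or the 50th percentile, a pseudocount of 1 or 64, gene-level values, no intensity trend, a 1.5-fold limit and leaving out arrays and experiments. Experiments 1 and 2 alone with the block was added after seeing the data.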

Additional observations from a re-analysis of the deposited data

How the results depend on the processing

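The number of arrays, 1 per arm and experiment, limits the precision, and detection calls were not used here. None of the 18 member probe sets and none of the listed genes was called in GemKD against control under any alternative run. Over all probe sets the count in this comparison was 1, against 3 with the replicate block of the experiment, 0 without an intensity trend, 13 with the block on experiments 1 and 2 alone, and 0 to 1 when an array or experiment was left out. Of 200 member values of GemKD minus control under the alternatives, 29 moved by more than the SD of the 3 ratios. Jup stayed between 0.34 and 0.61 and Cdh2 between 0.26 and 0.29, except that leaving out an array or experiment without a block gave -0.04 to 0.61 for Cdh2, and -0.98 to 0.50 for Cldn7. Probe sets of the members with 1 sign in every experiment numbered 9, 4 genes by the brightest probe set and 3 by gene means. They numbered 14 in experiments 1 and 2 alone, and 11 to 14 with an experiment left out. There only 2 ratios had to share a sign, a weaker rule, and its share over all probe sets was not computed, so these counts are not comparable with the 9. In experiment 3 the member count of 3 was 5 at 1.5-fold and 2 to 5 when an array or experiment was left out. It was 2 with a pseudocount of 64 and 2 by gene means, where Ocln did not pass (0.87 and 0.77). Over all probe sets 619 were past the limit there, against 1076 and 261 with a pseudocount of 1 and 64, 348 and 245 genes by brightest and mean values, and 2654 at 1.5-fold. Other junction genes numbered 9, against 20 at 1.5-fold, 11 and 7 with a pseudocount of 1 and 64, and 6 by gene means. The difference in ratio between experiment 3 and the others was called for 2 probe sets, 1 with no filter or a pseudocount of 1, 1 gene by gene means and 0 without an intensity trend.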
